A study of Mus musculus with 6 samples.

Results

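Ascl2 (ENSMUSG00000009248) was 1 of 2195 genes in the deposited comparison of Gab1 IEC-KO with Gab1 fl/fl colons, and it was taken by its name, together with the proliferation gene Mki67 as its point of reference. RNA-Seq had been performed on flushed whole colons of 3 Gab1 fl/fl mice, labelled WT, and 3 Gab1 IEC-KO mice, which were littermates aged 8 to 10 weeks. Both groups carried the floxed Gab1 alleles, and both drank 3% dextran sulfate sodium (DSS), a colitis-inducing polymer, for 7 days. In Gab1 IEC-KO mice, Cre under the Villin promoter deletes the adaptor protein Gab1 in intestinal epithelium, while the other cells of the colon keep it. No untreated colons were analysed here, so every value describes colons under DSS. All listed genes had been selected by the authors for an unadjusted p under 0.05 between these same 6 libraries, so no test below is independent of that selection. Gab1 itself was not among the listed genes, and its deletion could not be checked in these values.

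Ascl2 is a basic helix-loop-helix (bHLH) transcription factor that binds E-box DNA motifs together with E proteins. In the intestine it is a target of Wnt signaling in crypt base stem cells, where in mice it maintains the Lgr5-positive stem cell state. After epithelial injury in mice, Ascl2 also marks cells that regain stem cell properties, and the interleukin-11 receptor gene Il11ra1 is known there as one of its targets. Outside the epithelium Ascl2 is known in follicular helper T cells and, as an imprinted gene, in the placenta. Mki67 encodes Ki-67, a protein of dividing cells of any type.

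Ascl2 lies on the minus strand of mouse chromosome 7 at chr7:142966829-142969264 (GRCm38), and the coding part of its longer annotated transcript begins in exon 1 and ends in exon 2 of 3 exons. The 250 bases upstream of the RefSeq start (GRCm38.p6) of both genes are given because the report turns on this pair, with capitals marking E-boxes (CANNTG, the motif class that Ascl2 itself binds) and CCAAT boxes on either strand. The Ascl2 sequence is the minus strand of chr7:142969265-142969514 and that of Mki67 the minus strand of chr7:135716380-135716629.
Ascl2: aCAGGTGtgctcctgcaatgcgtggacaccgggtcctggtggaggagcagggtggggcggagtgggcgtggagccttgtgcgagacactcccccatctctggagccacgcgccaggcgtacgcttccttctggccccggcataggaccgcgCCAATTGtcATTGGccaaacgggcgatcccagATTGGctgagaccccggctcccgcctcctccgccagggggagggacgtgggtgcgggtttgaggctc
Mki67: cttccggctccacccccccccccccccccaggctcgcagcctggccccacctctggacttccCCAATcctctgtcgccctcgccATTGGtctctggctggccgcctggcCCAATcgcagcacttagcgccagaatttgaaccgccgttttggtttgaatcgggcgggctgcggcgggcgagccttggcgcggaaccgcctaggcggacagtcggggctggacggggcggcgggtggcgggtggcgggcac
The Ascl2 sequence held 2 E-boxes (CAGGTG and CAATTG) and 3 CCAAT boxes, the first of which overlaps CAATTG. The Mki67 sequence held 3 CCAAT boxes and no E-box. Among 32851 RefSeq promoters of this length, 66.2% held an E-box and 33.8% a CCAAT box, so neither motif was rare. Neither sequence held CAAAG (in 48.6% of promoters) or CAGCTG (in 13%). These matches describe letters only, and no binding was measured.

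Ascl2 was lower in every Gab1 IEC-KO colon than in any Gab1 fl/fl colon. In normalized counts, which are reads divided by the library's size factor, Ascl2 stood at 7.02, 19.3 and 44.1 in Gab1 fl/fl mice 1 to 3. In Gab1 IEC-KO mice 1 to 3 it stood at 4.24, 0 and 0.912. The groups did not overlap, but the lowest Gab1 fl/fl colon and the highest Gab1 IEC-KO colon were close. These values rest on 7, 19 and 46 reads in Gab1 fl/fl colons and on 4, 0 and 1 reads in Gab1 IEC-KO colons. The exact 95% Poisson intervals, which cover counting error only, were 2.82 to 14.5 normalized counts in Gab1 fl/fl mouse 1 and 1.16 to 10.9 in Gab1 IEC-KO mouse 1, so this pair could not be separated by counting. The 0 in Gab1 IEC-KO mouse 2 allows up to 3 reads, or 3.06 normalized counts, as a one-sided limit (the two-sided interval ended at 3.77), and Ascl2 was therefore not detectable there at this depth rather than shown to be absent.

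In Gab1 fl/fl colons the mean was 23.5 ± 18.9 normalized counts (SD, n = 3), and for the Gab1 IEC-KO group it was 1.72 ± 2.23 (SD, n = 3). Summed over the colons of a group, 72 reads stood against 5, a 14.4-fold ratio at equal scaling with an exact interval of 5.88 to 45.6 that again covers counting error only. On the log2(value + 1) scale, the difference was -3.17 with a standard error of 0.81, and limma gave an unadjusted p of 0.00481 and a Benjamini-Hochberg adjusted p of 0.429 over 16716 genes. The exact two-sided permutation test gave p = 0.1, the smallest that 3 colons against 3 allow. On the recovered reads, edgeR gave a log2 fold change of -3.72 (adjusted p = 0.545) and DESeq2 one of -3.80 (adjusted p = 0.0949). Without Gab1 fl/fl mouse 3 the limma difference was -2.57, and without Gab1 IEC-KO mouse 1 it was -3.81. In a bulk tissue, fewer cells that express Ascl2 and less Ascl2 RNA per cell cannot be told apart.

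**Figure D1:**
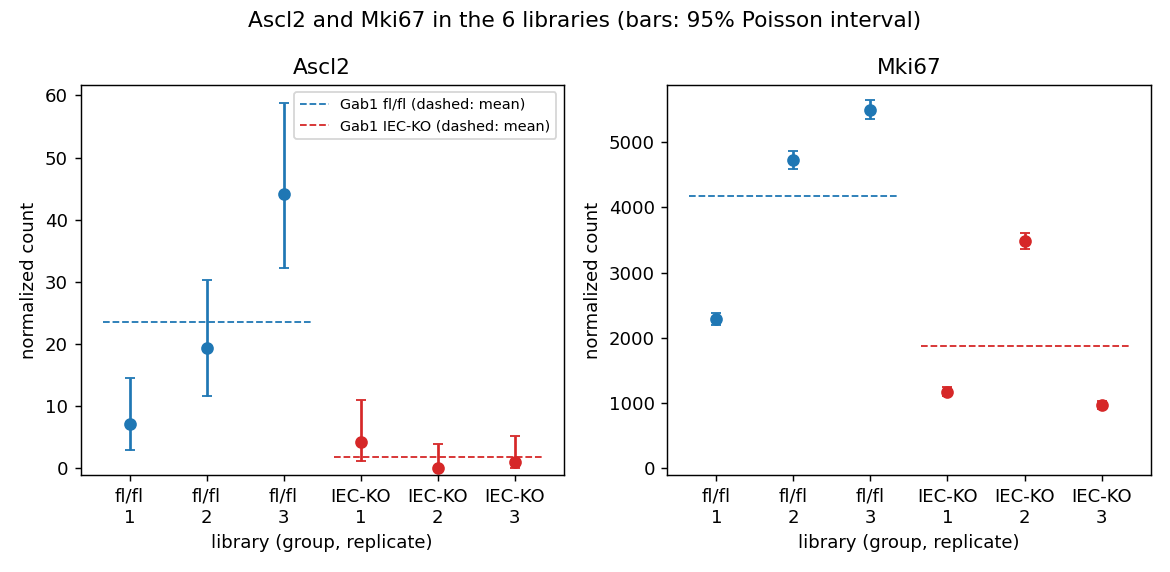
Normalized counts of Ascl2 and Mki67 in each colon, with 1 point per mouse and the mean of each group. Bars are the exact Poisson intervals of each colon, which cover counting error only and not the spread between mice. Ascl2 ranges from 7.02 to 44.1 in Gab1 fl/fl and from 0 to 4.24 in Gab1 IEC-KO colons without overlap, whereas the Mki67 ranges overlap.

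Among the listed genes, Ascl2 had the 8th lowest log2 fold change of 2195. Of the 16716 genes in the authors' adjustment, 3.53% were listed as lower after the deletion and 8.67% as higher, without the 156 listed genes that had no adjusted p. These shares are the background to the number of listed members in each gene list below. Every Gab1 IEC-KO colon lay below every Gab1 fl/fl colon for 19.3% of listed genes, Ascl2 among them. At an unadjusted p under 0.05 in limma, 14.9% of listed genes (328) were lower and 40% (879) were higher. No listed gene had an adjusted p under 0.05 in limma or edgeR, against 117 (5.33%) in DESeq2. At an unadjusted p under 0.05, edgeR had 310 lower (14.1%) and 894 higher genes (40.7%), and DESeq2 had 353 lower (16.1%) and 1052 higher (47.9%). With an absolute log2 fold change over 1 required as well, limma had 201 lower (9.16%) and 625 higher genes. Scaling on the listed genes alone turned that balance to 590 lower and 215 higher (TMM) or 639 lower and 184 higher (median-of-ratios size factors), and it moved the median log2 fold change by -0.58 or -0.65. Ascl2 was lower under both scalings, at -3.61 and -3.67.

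Ascl2 varied widely between Gab1 fl/fl colons, whereas its spread between Gab1 IEC-KO colons rests on 5 reads in all. Its highest Gab1 fl/fl colon held 6.27 times its lowest, and the coefficient of variation was 80.3% in Gab1 fl/fl and 130% in Gab1 IEC-KO colons. Counting alone would give an SD of 4.79 normalized counts in Gab1 fl/fl colons, where 18.9 was measured. In Gab1 IEC-KO colons it would give 1.33, where 2.23 was measured, and whether that exceeds counting error was not tested. The SD on the log2(value + 1) scale was 1.25 and 1.20, against medians over listed genes of 0.42 and 0.45, so that 95.5% and 94.2% of listed genes varied less. These genes were not matched for level, and only 183 of the 2195 had a lower mean than Ascl2. The intervals of Gab1 fl/fl mouse 3 (32.3 to 58.8) and mouse 2 (11.6 to 30.2) did not overlap, whereas those of mouse 2 and mouse 1 did. Those of Gab1 IEC-KO mice 1 to 3 (1.16 to 10.9, 0 to 3.77 and 0.0231 to 5.08) all overlapped. The order of these colons for Ascl2 was therefore not resolved by counting.

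Mki67 (chr7:135689784-135716361) was also lower on average in Gab1 IEC-KO colons, but with overlap. It stood at 2283, 4733 and 5502 normalized counts in Gab1 fl/fl mice 1 to 3 and at 1171, 3482 and 960 in Gab1 IEC-KO mice 1 to 3. Gab1 IEC-KO mouse 2 thus lay above Gab1 fl/fl mouse 1, which was the lowest of its group for Mki67 as it was for Ascl2. The means were 4172 ± 1681 and 1871 ± 1399 (SD, n = 3). The difference was -1.31 on the log2(value + 1) scale with a standard error of 0.53 (limma, unadjusted p = 0.0396, Benjamini-Hochberg adjusted p = 0.648). The exact permutation test gave p = 0.2. Per kilobase of gene length, the Ascl2 level was 14.5 normalized counts in Gab1 fl/fl and 1.06 in Gab1 IEC-KO colons, against Mki67 levels of 414.7 and 186.

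Across the 6 colons, the Pearson r of Ascl2 and Mki67 on the log2(value + 1) scale was 0.57 (exact permutation p = 0.251), and the Spearman rho was 0.66 (exact permutation p = 0.175). This was the only pair for which a correlation was tested, and neither value passed on this scale. On untransformed values r was 0.80 (exact permutation p = 0.0236). Without Gab1 IEC-KO mice 1 and 3, the colons farthest from the median of Mki67, r was 0.54. After the group means were removed, r was -0.02. In Gab1 fl/fl colons both genes had the order mouse 1, mouse 2, mouse 3 from low to high. In Gab1 IEC-KO colons, mouse 2 had the highest Mki67 and no Ascl2 read, and without it r was 0.96 (exact permutation p = 0.00833, the smallest that 5 colons allow). That mouse was singled out from these same values, so this p gives no independent support. Leaving out any other single colon gave an r of 0.34 to 0.62 (exact permutation p = 0.242 to 0.542). Set against Mki67 in the same colon, Ascl2 amounted to 3.08, 4.09 and 8.01 per 1000 Mki67 normalized counts in Gab1 fl/fl mice 1 to 3. In Gab1 IEC-KO mice 1 to 3 this ratio was 3.62, 0 and 0.951, so that Gab1 IEC-KO mouse 1 lay within the Gab1 fl/fl range.

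**Figure D2:**
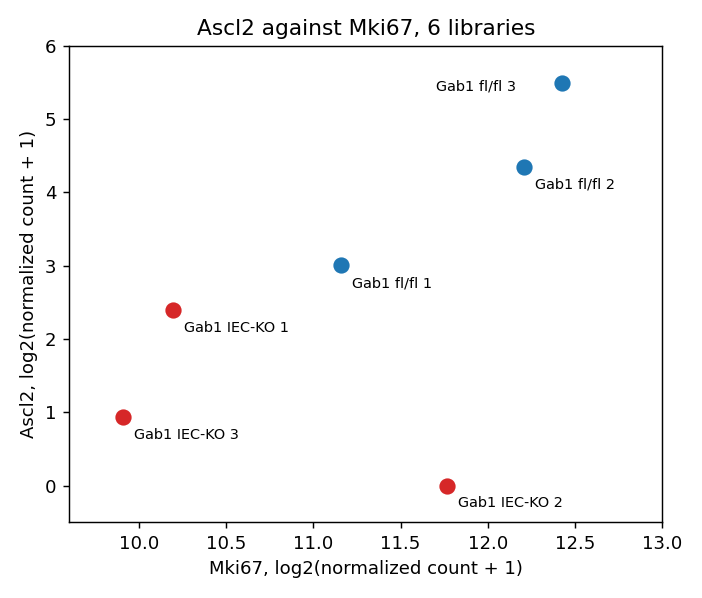
Ascl2 against Mki67 in the 6 colons, both as log2(normalized count + 1), with the groups in separate colors. Gab1 IEC-KO mouse 2 sits high on Mki67 and at 0 on Ascl2, and r over all 6 colons is 0.57.

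Of 50 proliferation genes, 18 were listed, all of them lower, with a median log2 fold change of -1.31 against 0.79 over all listed genes. In all 18, Gab1 fl/fl mouse 1 was the lowest of its group, Gab1 IEC-KO mouse 2 was the highest of its group, and Gab1 IEC-KO mouse 2 exceeded Gab1 fl/fl mouse 1. Of all 659 lower genes, Gab1 fl/fl mouse 1 was the lowest of its group in 63.7%. Gab1 IEC-KO mouse 2 exceeded it in 156 of the 659. At an unadjusted p under 0.05 in limma, 6 of the 18 passed, where 14.9% of all listed genes passed as lower. All 18 did without Gab1 fl/fl mouse 1 or without Gab1 IEC-KO mouse 2, and none did when any of the other 4 mice was left out. Ccna2, the S and G2 phase cyclin, stood at 597, 1405 and 1544 in Gab1 fl/fl and at 310.9, 1094 and 245.4 in Gab1 IEC-KO colons. Over all 659 lower genes, Gab1 IEC-KO mouse 2 was the highest of its group in 51.1% and the lowest in 19.1%. It was also the lowest for Ascl2, but with an order not resolved by counting.

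Among genes of the crypt base, Ascl2 had the lowest log2 fold change of those listed. Of 30 stem cell and crypt base genes, 10 were listed, with 7 lower and 3 higher. At an unadjusted p under 0.05 in limma, 14.9% of all listed genes passed as lower and 40% as higher. Of these 10, 3 passed as lower (Ascl2 itself, Ephb3 and Clca3b) and 2 as higher (Cd44 and Fstl1). The values are of whole colons, and which cells held the RNA of these genes was not tested. Without Gab1 fl/fl mouse 1, 7 passed as lower, and without Gab1 fl/fl mouse 3 only 1 did. The stem cell markers Lgr5, Smoc2 and Olfm4 were not listed, so their levels were not analysed here. Ephb3, a receptor that positions cells along the crypt, stood at 202.7, 353.2 and 443.4 in Gab1 fl/fl and at 137.9, 159.3 and 209.8 in Gab1 IEC-KO colons, which gave a log2 fold change of -0.92 (standard error 0.37). Its groups overlapped by the single value of Gab1 IEC-KO mouse 3. The adhesion receptor Cd44 stood at 1027, 1118 and 954.8 in Gab1 fl/fl and at 1318, 1628 and 1594 in Gab1 IEC-KO colons. Its log2 fold change of 0.55 turned to -0.03 under TMM scaling and to -0.11 under size factors of the listed genes. The remaining listed genes of the crypt base had log2 fold changes between -1.26 (Esrrg) and 0.97 (Prom1) and did not pass.

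Among the listed Wnt genes, the feedback genes Axin2 and Rnf43 and the receptor gene Lgr4 were lower, and the other 7 were higher. Of the Wnt ligand and R-spondin genes looked up, only Wnt5a and Rspo3 were listed, and other genes of these families were not looked up. The feedback genes Znrf3, Nkd1 and Notum were not listed. Of 41 Wnt pathway genes and targets, 10 were listed. At an unadjusted p under 0.05 in limma, 3 of them passed as lower (Axin2, Rnf43 and Lgr4) and 6 as higher (Dkk2, Dkk3, Sfrp1, Sfrp5, Rspo3 and Wnt5a). Over all listed genes, 14.9% passed as lower and 40% as higher. None of the 10 passed as lower when Gab1 fl/fl mouse 2 or 3 or Gab1 IEC-KO mouse 1 or 3 was left out. Axin2, the feedback inhibitor that reports Wnt signaling, stood at 94.3, 206.7 and 336.1 in Gab1 fl/fl and at 70.0, 84.8 and 82.1 in Gab1 IEC-KO colons, which gave a log2 fold change of -1.24 (standard error 0.48). Its groups did not overlap, and its order among Gab1 fl/fl colons was that of Ascl2. Rnf43, a ubiquitin ligase that removes Wnt receptors, had a log2 fold change of -0.79 (standard error 0.33). Lgr4, a receptor for R-spondins, had one of -0.46 (standard error 0.19). Rspo3, an R-spondin made by stromal cells, stood at 258.9, 91.6 and 76.6 in Gab1 fl/fl and at 417.0, 243.1 and 359.4 in Gab1 IEC-KO colons. Gab1 fl/fl mouse 1, the lowest of its group for Ascl2, was the highest of its group for Rspo3 and lay above Gab1 IEC-KO mouse 2. Sfrp1, a secreted Wnt antagonist, had a log2 fold change of 1.53 (standard error 0.33), and Wnt5a, a mostly noncanonical ligand, one of 1.08 (standard error 0.34). Kremen1, a coreceptor of Dkk proteins, did not pass, and its 0.53 turned to -0.05 under TMM scaling and to -0.13 under size factors.

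**Figure D3:**
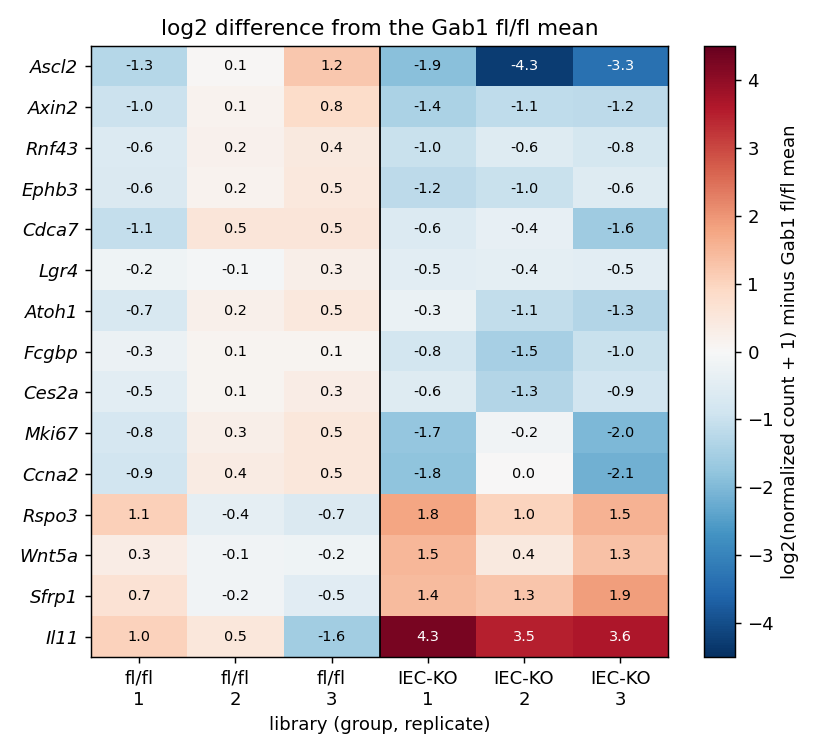
Heatmap of log2(normalized count + 1) minus the Gab1 fl/fl mean of that gene, for 15 genes (vertical axis) in the 6 colons (horizontal axis), with the difference printed in each cell. Ascl2 stands at -4.28 in Gab1 IEC-KO mouse 2, the floor set by 0 reads and the added 1 rather than a measured level. In that colon Mki67 and Ccna2 are nearest to the Gab1 fl/fl mean among the Gab1 IEC-KO colons.

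Of 22 bHLH partners, relatives and inhibitors of Ascl2, only Id1 and Atoh1 were listed, and neither passed in limma at an unadjusted p under 0.05. Id1, which sequesters E proteins, had a log2 fold change of -1.19 (standard error 0.54). Atoh1, the bHLH factor of secretory cells, had one of -0.90 (standard error 0.41), with values of 485.7, 947.8 and 1120 in Gab1 fl/fl and 657.8, 373.9 and 322.0 in Gab1 IEC-KO colons. Like Ascl2, Atoh1 was highest in Gab1 IEC-KO mouse 1 among the Gab1 IEC-KO colons, although the Ascl2 order there was not resolved by counting.

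In the IL-11 axis, 2 of 5 genes were listed, and both were higher at an unadjusted p under 0.05 in limma, as were 40% of all listed genes. The cytokine gene Il11 stood at 57.2, 39.7 and 8.62 in Gab1 fl/fl and at 549.6, 321.8 and 353.9 in Gab1 IEC-KO colons, which gave a log2 fold change of 3.81 (standard error 0.66). Its order among Gab1 fl/fl colons was the reverse of that of Ascl2. Il6st, the shared signaling receptor gp130, had a log2 fold change of 0.67 (standard error 0.25), which was 0.09 under TMM scaling and 0.01 under size factors. The receptor gene Il11ra1 was not listed.

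Genes of the injury-associated, fetal-like epithelium went in both directions. Of 21 genes in this list, 9 were listed, 6 of them higher and 3 lower, and at an unadjusted p under 0.05 in limma 6 passed as higher and 2 as lower. Over all listed genes, 40% passed as higher and 14.9% as lower. Ereg, an EGF receptor ligand, stood at 825.8, 267.7 and 253.8 in Gab1 fl/fl and at 5018, 2017 and 2539 in Gab1 IEC-KO colons. Clu, which marks revival stem cells in mice, was lower, at 3692, 2228 and 2889 against 833.9, 1944 and 1806. All 9 genes separated the groups without overlap, 3 below and 6 above (19.3% and 43% of all listed genes).

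Listed markers of epithelial cell types are set beside the Ascl2 values. Epcam and Vil1 were not listed, and the general epithelial markers that were included Cldn3, a tight junction protein, at 7190 to 9163 normalized counts in Gab1 fl/fl and 4891 to 6672 in Gab1 IEC-KO colons. At an unadjusted p under 0.05 in limma, 14.9% of all listed genes passed as lower and 40% as higher. Of 25 general epithelial markers, 4 were listed, all lower, and Cldn3 and Klf5 passed. Their summed level over these 4 was 15620 to 18787 in Gab1 fl/fl and 9742 to 12001 in Gab1 IEC-KO colons, with a median log2 fold change of -0.58 against -3.17 for Ascl2. The sum covers only markers selected for a difference between these groups, so its separation is not independent of that selection. Of 20 goblet and secretory cell markers, 5 were listed, and Fcgbp, Clca1 and Spink4 passed as lower. Atoh1 was lower and Dclk1 higher (log2 fold change 0.50), and neither passed. Fcgbp, a mucus protein, stood at 58095, 75142 and 75839 in Gab1 fl/fl and at 39446, 24784 and 34703 in Gab1 IEC-KO colons, which gave a log2 fold change of -1.10 (standard error 0.21). Gab1 IEC-KO mouse 2 was the lowest of its group for Fcgbp, as for Ascl2, whose order there was not resolved by counting. Of 24 absorptive colonocyte markers, 6 were listed, with 3 passing as lower and 1 as higher. The part of epithelial content in the Ascl2 difference was not tested.

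Listed markers of other cell types differed between the groups as well, as the selection requires. At an unadjusted p under 0.05 in limma, 40% of all listed genes passed as higher and 14.9% as lower. All 11 listed of 16 neutrophil and monocyte markers were higher, 10 at that threshold, and their summed level was 871 to 1932 in Gab1 fl/fl and 2750 to 5904 in Gab1 IEC-KO colons. Such sums cover only members selected for a difference between these groups, so their separation is not independent of that selection. The highest Gab1 fl/fl sum was that of mouse 1, the lowest of its group for Ascl2, and Ngp was the single marker at 0 in a colon. All 11 listed of 12 fibroblast markers were higher, 9 at an unadjusted p under 0.05, with sums of 24265 to 37653 and 50370 to 91833. Of 15 follicular helper T cell and germinal center markers, 5 were listed. The B cell genes Fcer2a and Ms4a1 were among those that passed as lower, and Pdcd1, an inhibitory receptor of activated T cells, and Cxcl13, a chemokine that attracts B cells, passed as higher. The part of these cells in the Ascl2 difference was not tested.

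The genes most like Ascl2 over the 6 colons were ranked by Pearson r on the log2(value + 1) scale, as a description with no test, since all of them were selected for a difference between the same groups. Of 1933 genes ranked, 528 were lower in Gab1 IEC-KO colons, with a median r of 0.72, and 67 of these had an r over 0.9. Mki67 ranked 431st of the 528. The 8 most alike were Ces2a (0.99), B3galt2 (0.98), Hist1h4i (0.98), Sh3rf1 (0.97), Fcgbp (0.97), Pla2g10 (0.96), Mical2 (0.96) and Pdik1l (0.95). Ces2a, a carboxylesterase of absorptive cells, stood at 639.2, 968.1 and 1101 in Gab1 fl/fl and at 595.2, 348.3 and 482.5 in Gab1 IEC-KO colons. It had the order of Ascl2 in all 6 colons, at a log2 fold change of -0.92. Among Gab1 IEC-KO mice 1 to 3, the Ascl2 order came from 4, 0 and 1 reads and was not resolved by counting. The ranking by r carries the same limit. Pla2g10, a secreted phospholipase, stood at 1514, 1488 and 1713 against 1235, 999 and 1115. The 8 genes had log2 fold changes from -1.12 (B3galt2) to -0.34 (Mical2), all smaller in size than that of Ascl2.

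The genes most opposed to Ascl2 were Tgfb1, Loxl3, Fxyd5, Slc15a3 and Clec5a, each with r = -0.99. Clec5a, a receptor of myeloid cells, stood at 67.2, 54.0 and 35.4 in Gab1 fl/fl and at 93.4, 159.3 and 110.4 in Gab1 IEC-KO colons. Slc15a3, a lysosomal peptide transporter, had a log2 fold change of 1.07. Tgfb1, the cytokine TGF-beta 1, had one of 0.40 that turned to -0.18 under TMM scaling and -0.26 under size factors, and Fxyd5 one of 0.55 that turned to -0.03 and -0.11. By list, the median r with Ascl2 was 0.93 over goblet and secretory markers, where r ranged from -0.51 (Dclk1) to 0.97. The median was 0.78 over general epithelial and 0.08 over absorptive colonocyte markers, where r ranged from -0.73 to 0.99 in the latter. It was 0.71 over bHLH, 0.58 over stem cell, 0.56 over proliferation and 0.32 over follicular helper T cell and germinal center genes. Below 0 were the medians of chromosome 7 (-0.05), injury-associated (-0.46), Wnt (-0.62), fibroblast (-0.75), IL-11 (-0.83) and neutrophil and monocyte genes (-0.95), against -0.64 over all listed genes. Every member was listed for a difference between the groups, so the sign of r repeats whether a gene was lower or higher. Proliferation genes, all lower, had a median of 0.56 against 0.72 over the 528 lower genes ranked.

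**Figure D4:**
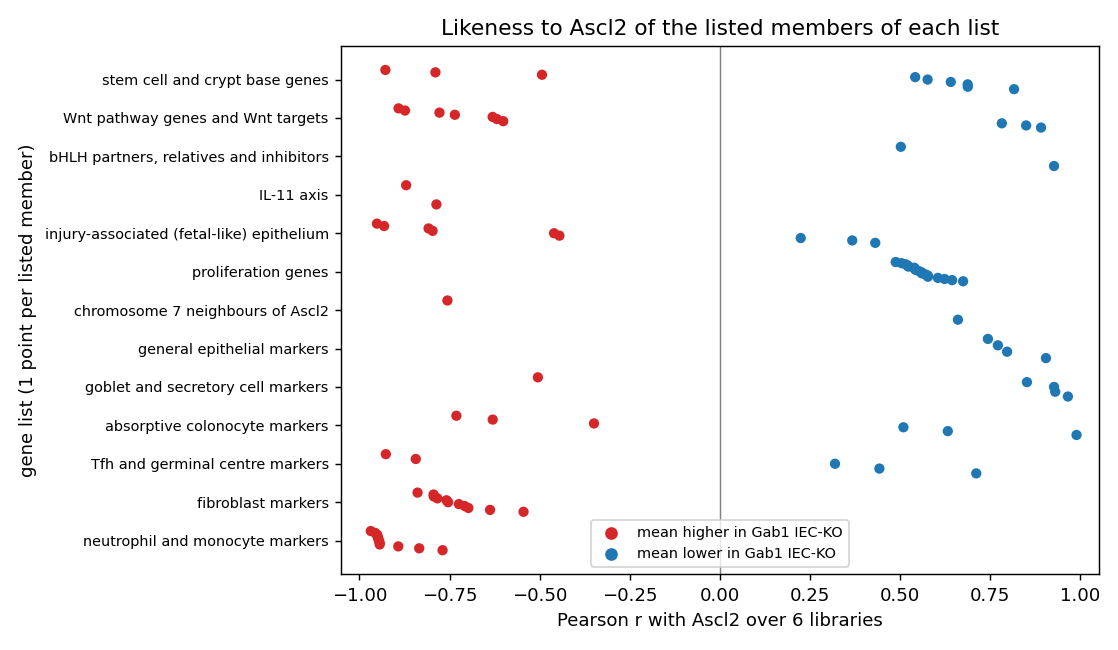
Pearson r with Ascl2 over the 6 colons (horizontal axis) for the listed members of each gene list (vertical axis), with 1 point per gene. Proliferation genes lie between 0.49 and 0.67, and neutrophil and monocyte genes between -0.97 and -0.77.

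On chromosome 7, 17 annotated genes lay within 250 kb on either side of Ascl2, 8 of them protein-coding, and only Ascl2 and Kcnq1 were listed. The adjacent protein-coding genes Th and Tspan32 were not. Kcnq1, a potassium channel, stood at 287.0, 727.9 and 648.3 in Gab1 fl/fl and at 282.2, 416.8 and 183.3 in Gab1 IEC-KO colons, which gave a log2 fold change of -0.88 (standard error 0.45), with overlap. H19, an imprinted noncoding RNA farther along the chromosome, stood at 18.1, 47.9 and 3.83 against 78.5, 81.7 and 52.9 (log2 fold change 2.10, standard error 0.79). H19 passed at an unadjusted p under 0.05 in limma and Kcnq1 did not. The H19 call was lost in edgeR (unadjusted p = 0.0618) and when Gab1 fl/fl mouse 3 or Gab1 IEC-KO mouse 1 or 2 was left out.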

How the data were processed

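Poly(A) RNA of 6 colons, 3 per genotype, was sequenced by the authors. Per the submitters' processing notes, HISAT2 2.0.5 served for alignment and featureCounts 1.5.0-p3 for counting reads in genes. The notes name the build hg18, but 2113 of 2195 gene coordinates were identical to mouse GENCODE M21 (GRCm38). The authors deposited a signal per gene and library, namely counts divided by a size factor, with log2 fold changes, p-values and adjusted p-values of their own comparison. For the tool behind those columns, the sources used here give no name. Their fold changes were not used, and their p-values only to find that the 2195 genes were selected at p under 0.05 and adjusted over 16716 genes. A second sheet, a subset of the first, was not used.

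Values were whole multiples of what 1 read is worth (0.912 to 1.06 normalized counts), within 0.01 for 100% of values, and the recovered reads of listed genes summed to 1957437 to 2787670 per library. Total depth is unknown. limma 3.58.1 (R 4.3.3) was fitted with a variance trend to log2(value + 1) of all listed genes, without a filter, with Benjamini-Hochberg adjustment over 16716 genes and unlisted genes taken as having larger p. The 2195 genes also set the variance prior. edgeR 4.0.16 (quasi-likelihood) and DESeq2 1.42.0 on recovered reads were alternatives, as were other pseudocounts (0.1 and 10), a minimum mean of 10, no trend, other scalings, a replicate block and leaving out each library. Adjustment of the main fit over the 2195 listed genes alone was a further setting. The fits were tested on simulated data. Each library was taken as 1 mouse, which no label states, and p-values otherwise measure only the spread between libraries. Likeness to Ascl2 was ranked without predicted, RIKEN and immunoglobulin or T cell receptor genes. Named were Ascl2, Mki67, the 8 most and 5 least alike genes, all listed members of the stem cell, Wnt, bHLH, IL-11 and chromosome 7 lists, and up to 4 of each other list by mean. The gene and the lists were chosen with earlier results of these data known.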

Additional observations from a re-analysis of the deposited data

How the results depend on the processing

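Ascl2 was lower in Gab1 IEC-KO colons in all 16 settings tried, with an unadjusted p under 0.05 in 16 and an adjusted p under 0.05 in none (limma, edgeR or DESeq2, adjusted p 0.0563 to 1). The 0.0563 was the main limma p adjusted over only the 2195 listed genes, which had been selected for a small p. That setting repeats the main fit. Over 16716 genes the lowest adjusted p was 0.0949 (DESeq2). Its log2 difference was -4.59 with a pseudocount of 0.1 and -1.37 with one of 10, and leaving out 1 library gave -3.81 to -2.57. Mki67 was lower in all 16 settings, with an unadjusted p under 0.05 in 10, and leaving out 1 library gave -1.88 to -0.95. The correlation of Ascl2 and Mki67 was 0.80 on untransformed values (exact permutation p = 0.0236). It was 0.34 to 0.96 when 1 library was left out, the highest without Gab1 IEC-KO mouse 2.

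The count of genes past both thresholds, 201 lower and 625 higher, was 100 lower with a pseudocount of 10, 590 lower and 215 higher with TMM and 639 lower and 184 higher with size factors of the listed genes. Leaving out 1 library gave 111 lower (without Gab1 fl/fl mouse 3) to 308 (without Gab1 fl/fl mouse 1) and 314 higher (without Gab1 fl/fl mouse 3) to 902. With edgeR, 2 proliferation genes passed as lower, 0 chromosome 7 neighbours and 2 absorptive colonocyte markers as higher. When 1 library was left out, the members that passed as lower were 1 to 7 for stem cell, 0 to 3 for Wnt, 0 to 2 for bHLH, 0 to 2 for injury-associated, 0 to 18 for proliferation, 0 to 1 for chromosome 7, 0 to 2 for epithelial, 0 to 2 for colonocyte and 1 to 3 for follicular helper T cell and germinal center genes. Those that passed as higher were 1 to 2 for stem cell, 2 to 7 for Wnt, 1 to 2 for IL-11, 0 to 1 for chromosome 7, 0 to 1 for goblet, 0 to 2 for colonocyte and 0 to 2 for follicular helper T cell and germinal center genes. Of 208 such counts over 13 lists, 149 lay within 1.5 times the reported one. The causes were not tested.

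The labels number the mice 1 to 3 in both groups, but do not state that the numbers pair them. The deviations of same-numbered libraries from their group means correlated at 0.20, 0.30 and -0.14, and not every library correlated best with its own number. With 3 libraries per group, these correlations cannot decide whether the mice were paired. With the replicate block, limma gave Ascl2 the same log2 difference of -3.17 (adjusted p = 0.339) and Mki67 -1.31 (adjusted p = 0.392), and 246 lower and 705 higher genes passed both thresholds.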
